A study of Mus musculus with 9 samples.

Results

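The 30 genes described here serve the synthesis, uptake, sensing, storage and export of cholesterol. They were chosen by gene symbol from a list made on pathway knowledge, and all 30 were found among the 55359 genes of the count table. The 18 enzymes of synthesis were Acat2, Hmgcs1, Mvk, Pmvk, Mvd, Idi1, Fdps, Fdft1, Sqle, Lss, Cyp51, Tm7sf2, Msmo1, Nsdhl, Hsd17b7, Ebp, Sc5d and Dhcr7. The 12 others, called handling genes here, were Srebf2, Scap, Insig1 and Insig2 for sensing, Stard4, Mylip, Npc1, Npc2 and Scarb1 for uptake and transport, and Abca1, Abcg1 and Soat1 for export and storage. All 30 passed the filter on low counts and were tested among 14714 genes.

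Ribosome footprints, the stretches of mRNA that ribosomes protect during nuclease digestion, were counted for each gene in cultured mouse fat cell precursors taken from the inguinal fat pad, a white fat depot under the skin. There were 3 libraries of cells that were not induced (day 0), 3 after 4 days and 3 after 8 days of beige adipocyte differentiation. Induced cells first received dexamethasone, 3-isobutyl-1-methylxanthine, indomethacin, insulin, 3,3′,5-triiodo-L-thyronine and rosiglitazone, and after 2 days a medium without the first 3 of these. Day 0 cells were not induced, so time in culture and exposure to the medium cannot be told apart. Strain, sex and age of the mice were not given in the sources used here, nor whether replicates were separate animals or cultures, so each p-value speaks only of the scatter among these libraries. In such bulk samples fewer cells of a type and less RNA per cell cannot be told apart, and a footprint count reflects both how much of an mRNA there is and how densely it is translated. Matched RNA was not analysed here.

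Cholesterol is built from acetyl-CoA by way of mevalonate, isoprenoids, squalene and lanosterol. When sterols in the endoplasmic reticulum run low, SCAP carries the precursor of the transcription factor SREBP-2 to the Golgi, where it is cut and freed to raise genes of synthesis and uptake. INSIG proteins hold SCAP back when sterols are plentiful, and the liver X receptors then raise genes of export. Fat cells hold a large store of the body's cholesterol, in membranes and around lipid droplets.

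Libraries held 30823028 to 38994892 counts. Normalised read counts are given in CPM, relative to the library size scaled by TMM (trimmed mean of M values). On the first principal component, which held 75.9% of the variance, day 4 replicate 2 lay at 12.8 against 64.8 and 65.4 for the other day 4 libraries, toward day 0, which spanned -127 to -124. Day 8 replicate 3 lay at 62.1 against 85.5 and 85.8. Results that rest on these libraries are given with and without them. The 7 adipocyte markers examined, among them Adipoq and Fabp4, summed to 259 to 323 CPM at day 0, 33440.5 to 52504 CPM at day 4 and 50229 to 54099 CPM at day 8. The 7 precursor markers, among them Pdgfra and Pdgfrb, summed to 2402 to 2551 CPM at day 0, 804 to 1823 CPM at day 4 and 527 to 721 CPM at day 8. That sum rests mostly on Pdgfra and Pdgfrb. At day 4 against day 0, Pdgfrb (-2.21) and Dpp4 (-1.07) fell on the log2 scale. Dlk1 (0.77), Ly6a (0.86) and Cd34 (1.70) rose, and Pdgfra and Pi16 were not called. Without day 4 replicate 2 and day 8 replicate 3, Pdgfra (-0.93) fell too, beside Pdgfrb (-2.71) and Dpp4 (-0.96). In that fit Dlk1 (0.54) and Pi16 (-0.51) were not called, and Ly6a (0.36) and Cd34 (1.61) rose. In both fits the precursor markers did not fall together. In day 4 replicate 2 the precursor sum was 1823 CPM and the adipocyte sum 33440.5 CPM, the highest and the lowest of that day. The part of these shifts in the results below was not tested.

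At day 4 against day 0 the synthesis enzymes were split between a group that rose and a group that did not pass the test. By edgeR's quasi-likelihood test with Benjamini-Hochberg adjustment, 10 of 18 rose, 0 fell and 8 were not called, at adjusted p under 0.05. Their median log2 fold change was 0.56, beside -0.02 over all tested genes, of which 58.2% were called, 29.8% higher and 28.4% lower. The largest rises were those of Dhcr7 (6.53-fold), Pmvk (5.45-fold) and Cyp51 (4.16-fold). Of the 12 handling genes 5 rose and 5 fell, with a median of 0.23. The called ones ran from Scarb1 (12.03-fold higher) to Soat1 (2.61-fold lower). Without day 4 replicate 2 and day 8 replicate 3, 10 synthesis enzymes rose and 4 fell (Mvk, Fdft1, Sqle and Msmo1), and 66.6% of all genes were called, 33.3% higher and 33.3% lower. Scaling by library totals moved the median of all genes by -0.15 and the share of called genes that were higher to 41.9%, against 51.2% with TMM.

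At day 8 against day 0, 9 synthesis enzymes rose, 1 fell (Mvk) and 8 were not called, with a median of 0.33 beside -0.0057 over all tested genes. In that comparison 67.7% of all tested genes were called, 34.2% higher and 33.5% lower. Of the handling genes 6 rose and 4 fell, with a median of 0.37. Without the 2 libraries that lay apart, 9 synthesis enzymes rose and 5 fell, the added ones being Sqle, Cyp51, Msmo1 and Hsd17b7, and 70.9% of all genes were called, 35.6% higher and 35.2% lower. Both comparisons share the day 0 libraries. All libraries also share an estimate of spread, so leaving out a day 4 library can change a day 8 against day 0 call. This was so for Sqle, Npc2, Stard4 and Abca1 below, whose day 8 fold changes stayed the same as printed.

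Between day 8 and day 4 each synthesis enzyme that was called had fallen. Of 18, 6 were lower at day 8 (Cyp51, Dhcr7, Mvk, Nsdhl, Hsd17b7 and Acat2) and 0 were higher, with a median of -0.08. Over all tested genes 31.8% were called, 14.7% higher and 17.1% lower, with a median of -0.02. Of the handling genes 3 rose (Npc1, Mylip and Abcg1) and 1 fell (Abca1). The number of synthesis enzymes called was 3 without day 8 replicate 1 and likewise without day 8 replicate 2, and 7 without the 2 libraries that lay apart, where 36.5% of all genes were called, 16.6% higher and 19.9% lower. Summed over the 18 enzymes, the footprint level was 1733 ± 184 CPM at day 0, 4023 ± 556 CPM at day 4 and 2919 ± 317 CPM at day 8 (SD, n = 3 each). Genes with more footprints weigh more in such a sum. For the 12 handling genes it was 1669 ± 119 CPM at day 0, 2832 ± 90.8 CPM at day 4 and 2739 ± 86.8 CPM at day 8. With scaling by library totals 65.9% of the genes called between day 8 and day 4 were higher, against 46.2% with TMM. Groups whose libraries did not overlap in CPM were common. Of the 14714 tested genes this held for 9548 at day 4 and 11182 at day 8 against day 0. Between day 8 and day 4 it held for 6655. Of the 30 members it held for 21, 23 and 11 in the same order. Separate groups named below are thus no trait of these genes.

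**Figure D1:**
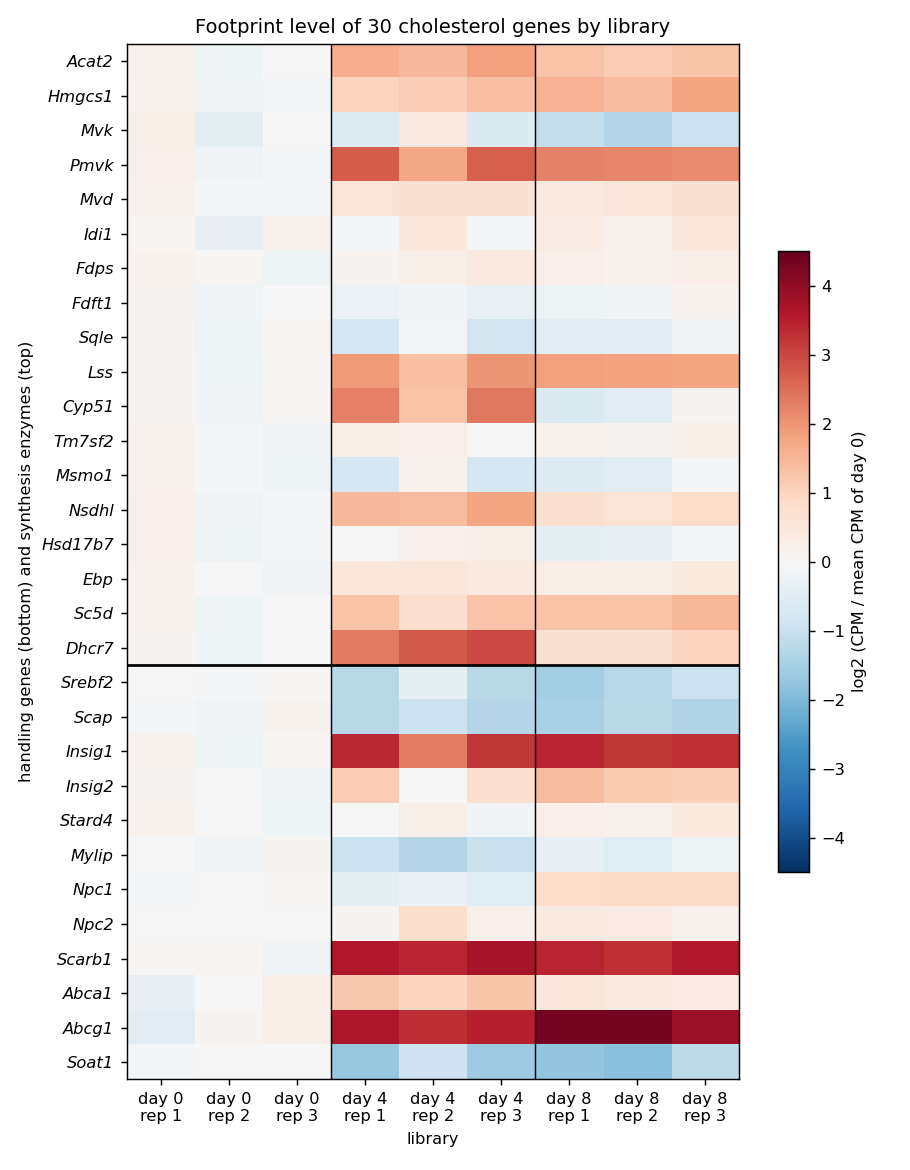
Footprint level of the 30 genes (rows, synthesis enzymes above the line and handling genes under it) in the 9 libraries (columns, by day and replicate), as log2 of CPM over the mean CPM of day 0. Red marks a level above day 0 and blue one under it. Cyp51 and Dhcr7 are redder at day 4 than at day 8, and Srebf2, Scap and Soat1 are blue at days 4 and 8.

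**Figure D2:**
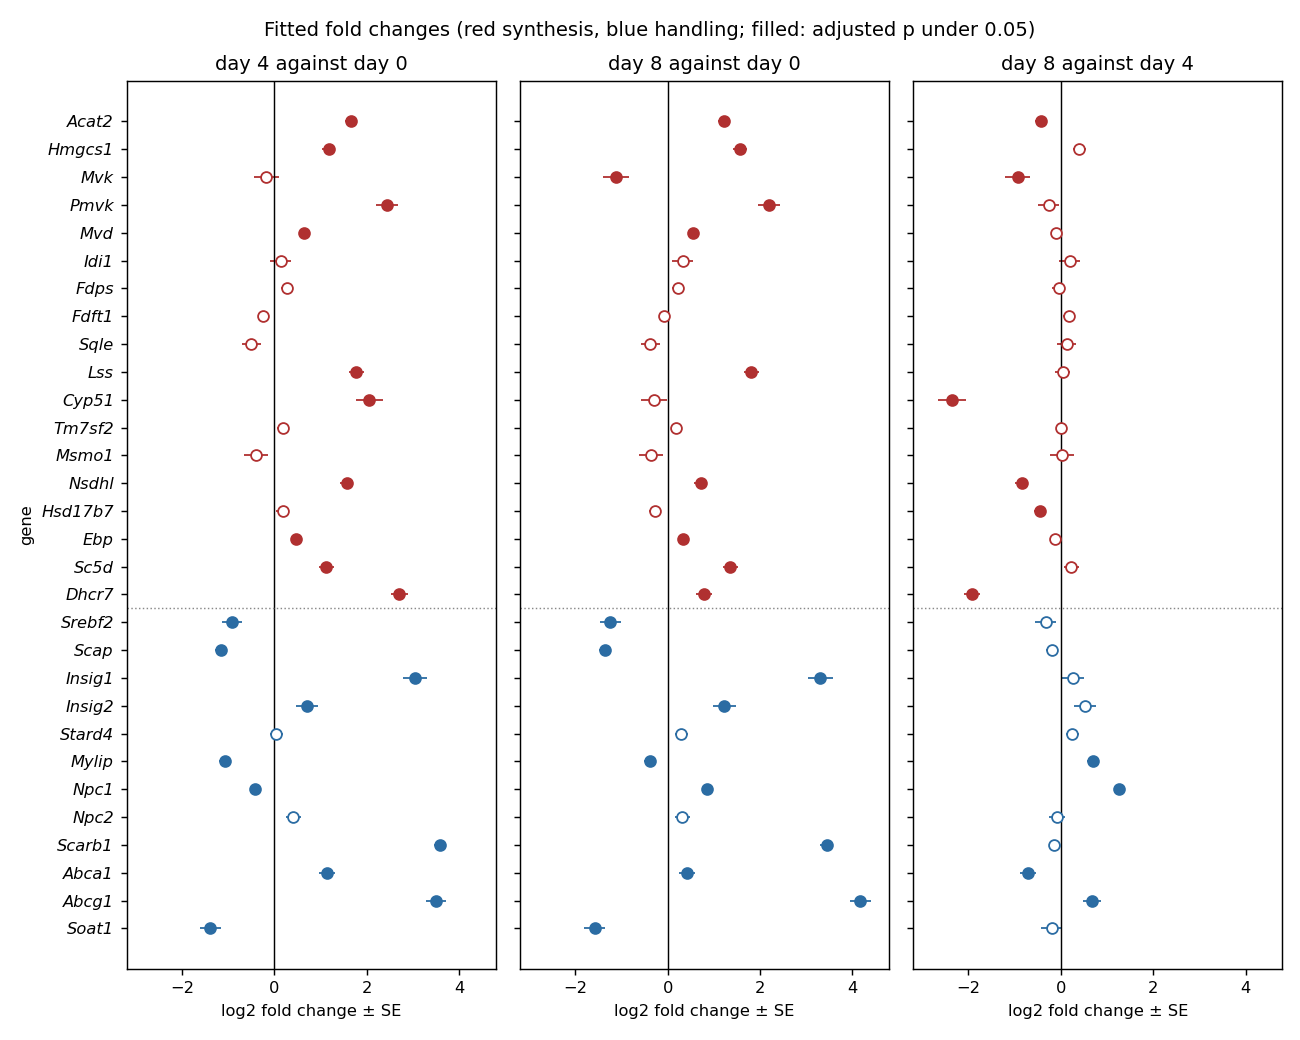
Fitted log2 fold changes (x axis, with SE bars) of the 30 genes (y axis) in the 3 comparisons, synthesis enzymes in red and handling genes in blue. Filled points have an adjusted p under 0.05. Of the 18 red points 10 are filled and to the right of 0 at day 4 against day 0, and 6 are filled and to the left of 0 at day 8 against day 4.

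Promoter windows of RefSeq (GRCm38.p6, 250 bases before to 50 after a start site) were listed for 23 of the 30 genes. They were searched on both strands for letters bound by factors of this pathway. SREBPs bind elements such as TCACNCCAC and work with NF-Y, which binds CCAAT, and with Sp1, which binds GGGCGG. The letters CCAAT stood in the windows of 20 of 23 genes, against 42.8% of the 10806 tested genes with a window, and in 14 of the 15 synthesis enzymes. GGGCGG stood in 22 of 23, against 68.3%, and the E-box CACGTG in 6, against 11.7%. TCACNCCAC was found in 1, Hmgcs1, against 1.45%. The DR4 direct repeat of the liver X receptors, in its exact consensus letters, was found in 0, against 0.00925%. Letters that rare would hardly be met in 23 genes, so their absence says nothing about these genes. No window was listed for Fdps, Fdft1, Sqle, Stard4, Npc1, Scarb1 and Abcg1. A gene with several windows counts once. Of the genes printed below, each with 1 window, Hmgcs1 rose on both days, Insig1 rose most among the sensing genes, Cyp51 was high on day 4 and no higher than day 0 on day 8, and Msmo1 did not pass the test on either day. Capitals mark matches to the 4 motifs other than the direct repeat, on either strand, none of which overlap another motif.
Hmgcs1 (chr13:119690101-119690400, plus strand): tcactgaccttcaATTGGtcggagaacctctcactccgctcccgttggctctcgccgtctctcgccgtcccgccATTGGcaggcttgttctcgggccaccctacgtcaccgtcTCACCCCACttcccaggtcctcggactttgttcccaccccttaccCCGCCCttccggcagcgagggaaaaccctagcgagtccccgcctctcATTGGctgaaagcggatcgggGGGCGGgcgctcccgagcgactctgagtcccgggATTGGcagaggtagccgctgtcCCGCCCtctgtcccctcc
Insig1 (chr5:28071162-28071461, plus strand): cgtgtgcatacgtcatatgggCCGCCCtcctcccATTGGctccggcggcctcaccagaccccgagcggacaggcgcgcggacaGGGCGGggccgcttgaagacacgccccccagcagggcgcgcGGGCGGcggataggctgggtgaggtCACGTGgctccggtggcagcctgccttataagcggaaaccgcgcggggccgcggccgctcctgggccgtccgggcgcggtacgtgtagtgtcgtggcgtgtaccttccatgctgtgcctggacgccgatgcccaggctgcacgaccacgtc
Cyp51 (chr5:4104648-4104947, minus strand): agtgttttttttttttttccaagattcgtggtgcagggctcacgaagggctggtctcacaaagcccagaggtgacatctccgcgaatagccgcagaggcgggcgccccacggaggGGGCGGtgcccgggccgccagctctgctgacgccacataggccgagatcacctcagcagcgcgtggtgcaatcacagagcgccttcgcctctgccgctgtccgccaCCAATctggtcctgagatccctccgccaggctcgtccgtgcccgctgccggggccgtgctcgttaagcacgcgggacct
Msmo1 (chr8:64733529-64733828, minus strand): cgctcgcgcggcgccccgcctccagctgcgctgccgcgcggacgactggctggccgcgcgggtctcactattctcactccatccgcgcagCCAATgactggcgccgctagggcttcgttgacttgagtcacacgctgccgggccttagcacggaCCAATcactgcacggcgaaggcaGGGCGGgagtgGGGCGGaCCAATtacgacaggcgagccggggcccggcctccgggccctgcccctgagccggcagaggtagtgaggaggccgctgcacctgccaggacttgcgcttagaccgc
The Hmgcs1 window held the SREBP letters 137 bases before the start site, 4 CCAAT boxes and 3 GC boxes. Msmo1 held 3 CCAAT and 2 GC boxes, so CCAAT and GC boxes stood both in genes that rose and in one that was not called. Cyp51 held 1 of each, and Insig1 held 1 CCAAT box, 3 GC boxes and 1 E-box. Such matches are descriptions of letters, not of binding.

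The first enzymes of the pathway rose. Hmgcs1 (ENSMUSG00000093930), which joins acetyl-CoA and acetoacetyl-CoA to HMG-CoA, had 423, 354 and 374 CPM at day 0, 776, 848 and 974 CPM at day 4 and 1129.5, 1001 and 1303 CPM at day 8. Its 3 groups did not overlap, and day 8 was the highest. It was 2.26-fold higher at day 4 (log2 fold change 1.17 ± 0.15 SE, adjusted p = 0.000108) and 2.98-fold higher at day 8 (1.58 ± 0.15 SE, adjusted p = 1.37e-05). The difference between day 8 and day 4 was not called (0.40 ± 0.15 SE, adjusted p = 0.0609), but it was by DESeq2 (0.41, adjusted p = 0.0192) and with scaling by library totals (0.55, adjusted p = 0.0172). Acat2, the cytosolic thiolase that makes acetoacetyl-CoA, rose 3.16-fold at day 4 (log2 fold change 1.66 ± 0.13 SE, adjusted p = 5.33e-06) and 2.34-fold at day 8. It was lower at day 8 than at day 4 (-0.43 ± 0.13 SE, adjusted p = 0.0288), a call lost without day 4 replicate 3 (-0.34, adjusted p = 0.0975) or without day 8 replicate 1 (-0.47, adjusted p = 0.0639), 2 (-0.39, adjusted p = 0.104) or 3 (-0.45, adjusted p = 0.0518), and with scaling by library totals (-0.29, adjusted p = 0.0962). Acat3, a related gene with its own line in the table, had 143 counts in all.

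The kinases that follow mevalonate went separate ways. Pmvk, phosphomevalonate kinase, had 30.1, 22.8 and 23.98 CPM at day 0, 169, 85.1 and 165 CPM at day 4 and 121, 119 and 111 CPM at day 8. Every induced library lay above day 0, and day 4 replicate 2 was the lowest of them. It rose 5.45-fold at day 4 (log2 fold change 2.45 ± 0.24 SE, adjusted p = 2.17e-05) and 4.56-fold at day 8 (2.19 ± 0.24 SE, adjusted p = 3.2e-05). Day 8 was lower than day 4 for Pmvk when day 4 replicate 2 was left out (-0.52, adjusted p = 0.00793), against -0.26 ± 0.23 SE, adjusted p = 0.414 with it. Mvk, the mevalonate kinase that acts just before, had 49.03, 30.5 and 40.5 CPM at day 0, 26.5, 53.5 and 26.3 CPM at day 4 and 18.95, 16.2 and 20.4 CPM at day 8. Day 4 replicate 2 was the highest of all 9 libraries, whereas the other day 4 libraries lay under day 0. Mvk was 2.16-fold lower at day 8 (log2 fold change -1.11 ± 0.28 SE, adjusted p = 0.00524) and was not called at day 4 (-0.18 ± 0.27 SE, adjusted p = 0.602). Without day 4 replicate 2 it had also fallen at day 4 (-0.60, adjusted p = 0.0135). Its fall between day 4 and day 8 (-0.94 ± 0.28 SE, adjusted p = 0.0292) was lost without day 8 replicate 1 (-0.96, adjusted p = 0.079) or 2 (-0.85, adjusted p = 0.1). It was also lost with a replicate block (-0.91, adjusted p = 0.0639), with scaling by library totals (-0.80, adjusted p = 0.0553) and in a fit of the 6 libraries compared (-0.93, adjusted p = 0.0552). Without day 4 replicate 2 that fall was smaller (-0.51, adjusted p = 0.0492).

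Mvd, the decarboxylase that ends this stretch, rose less, 1.57-fold at day 4 (log2 fold change 0.65 ± 0.11 SE, adjusted p = 0.000716) and 1.46-fold at day 8 (0.55 ± 0.11 SE, adjusted p = 0.0016). Idi1, an isomerase of the 5-carbon isoprenoid units, had 3.29, 2.38 and 3.53 CPM at day 0, 2.88, 4.27 and 2.96 CPM at day 4 and 3.85, 3.48 and 4.23 CPM at day 8. Fdps, which joins these units to farnesyl diphosphate, had 10.2, 9.47 and 7.78 CPM at day 0, 10.1, 10.9 and 12.2 CPM at day 4 and 10.6, 10.3 and 11.1 CPM at day 8. The groups overlapped, except that day 8 lay just above day 0 for Fdps. Idi1 was not called at day 4 (log2 fold change 0.13 ± 0.23 SE, adjusted p = 0.635) or day 8 (0.33 ± 0.23 SE, adjusted p = 0.225), nor was Fdps at day 4 (0.27 ± 0.14 SE, adjusted p = 0.112) or day 8 (0.23 ± 0.14 SE, adjusted p = 0.168). The 95% interval of the day 8 difference was -0.18 to 0.83 for Idi1 and -0.08 to 0.53 for Fdps, neither of which reaches the change of Pmvk. Idi1 has 5 named pseudogenes in the table, the most counted of which had 115 counts in all, and reads from near-identical copies could be split, so its counts are less certain.

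Of the 3 enzymes that make squalene and close it to lanosterol, 1 rose, Lss, and 2 were not called. Fdft1, squalene synthase, had a log2 fold change of -0.24 ± 0.12 SE, adjusted p = 0.115 at day 4 and -0.07 ± 0.12 SE, adjusted p = 0.618 at day 8. Without the 2 libraries that lay apart it was lower at day 4 (-0.28, adjusted p = 0.017), as it was when counts were scaled by library totals (-0.39, adjusted p = 0.0209) or by the upper quartile (-0.36, adjusted p = 0.0245). Fdft1 overlaps Ctsb in the RefSeq table, and the strand setting of the counts was not given, so its counts are less certain. Sqle, squalene epoxidase, an oxygen-dependent step of the pathway, had 203, 159 and 195 CPM at day 0, 109, 180.3 and 106 CPM at day 4 and 130.1, 134 and 167 CPM at day 8. Day 4 replicates 1 and 3 lay well under day 0, and replicate 2 lay inside its range. Over all libraries Sqle was not called at day 4 (log2 fold change -0.50 ± 0.21 SE, adjusted p = 0.0646), but it was lower under 7 of the 18 alternatives. These were the fits without day 4 replicate 2 (-0.79, adjusted p = 0.000582) and without both libraries that lay apart (-0.79, adjusted p = 4.4e-05), scaling by library totals (-0.64, adjusted p = 0.0267) or the upper quartile (-0.62, adjusted p = 0.0259), and no filter on low counts (-0.48, adjusted p = 0.0467). The others were DESeq2 (-0.49, adjusted p = 0.0475) and limma-voom (-0.53, adjusted p = 0.0436). At day 8 it was not called (-0.37 ± 0.21 SE, adjusted p = 0.139), and was lower without day 4 replicate 2 (-0.37, adjusted p = 0.0191), without both libraries that lay apart (-0.49, adjusted p = 0.00138) and in a fit of the 6 libraries compared (-0.37, adjusted p = 0.0298). Between day 8 and day 4 it was higher at day 8 without day 4 replicate 2 (0.42, adjusted p = 0.0424).

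Lss, which folds squalene epoxide into lanosterol, had 91.7, 74.9 and 87.96 CPM at day 0, 319, 219 and 333 CPM at day 4 and 304, 301 and 289.6 CPM at day 8. All induced libraries were above day 0, and day 4 replicate 2 was the lowest of them. It rose 3.42-fold at day 4 (log2 fold change 1.77 ± 0.16 SE, adjusted p = 1.39e-05) and 3.51-fold at day 8 (1.81 ± 0.16 SE, adjusted p = 9.89e-06).

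Among the 8 enzymes that turn lanosterol into cholesterol, 5 rose at day 4 and 4 at day 8, and none fell. Cyp51, the lanosterol demethylase, had 306, 253 and 292 CPM at day 0, 1359, 692 and 1487 CPM at day 4 and 179.7, 207 and 305 CPM at day 8. Day 4 stood apart from both other days, with replicate 2 well under the other day 4 libraries, and days 0 and 8 overlapped. Cyp51 rose 4.16-fold at day 4 (log2 fold change 2.06 ± 0.29 SE, adjusted p = 0.00023) and was 5.11-fold lower at day 8 than at day 4 (-2.35 ± 0.30 SE, adjusted p = 0.000685). At day 8 against day 0 it was not called (-0.30 ± 0.28 SE, adjusted p = 0.367), and it was lower than at day 0 without the 2 libraries that lay apart (-0.55, adjusted p = 0.000778). Dhcr7, which reduces 7-dehydrocholesterol to cholesterol, had 67.00, 53.6 and 61.8 CPM at day 0, 308, 407 and 475 CPM at day 4 and 97.5, 98.05 and 119 CPM at day 8. No group overlapped another, and day 4 replicate 2 lay between the other day 4 libraries. Dhcr7 rose 6.53-fold at day 4 (log2 fold change 2.71 ± 0.18 SE, adjusted p = 1.64e-06), was 3.79-fold lower at day 8 than at day 4 (-1.92 ± 0.17 SE, adjusted p = 0.000175), and was still 1.72-fold above day 0 (0.79 ± 0.17 SE, adjusted p = 0.00208).

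Nsdhl, a dehydrogenase that removes methyl groups of the sterol ring, followed the same course at a smaller scale. Its means were 69.8 ± 10.2 CPM at day 0, 207 ± 30.1 CPM at day 4 and 115 ± 8.01 CPM at day 8 (SD, n = 3). It rose 2.96-fold at day 4 (log2 fold change 1.57 ± 0.14 SE, adjusted p = 1.3e-05) and was lower at day 8 than at day 4 (-0.85 ± 0.14 SE, adjusted p = 0.00236), though above day 0 (0.72 ± 0.14 SE, adjusted p = 0.00119). Msmo1, the oxygen-dependent oxidase of the same demethylation, had 198, 165 and 152 CPM at day 0, 99.3, 193 and 100.5 CPM at day 4 and 115, 119.9 and 167 CPM at day 8. Day 4 replicates 1 and 3 lay under every day 0 library, and replicate 2 stood near the highest. Msmo1 was not called at day 4 (-0.39 ± 0.26 SE, adjusted p = 0.22) or day 8 (-0.36 ± 0.26 SE, adjusted p = 0.242). It was lower at day 4 without day 4 replicate 2 (-0.78, adjusted p = 0.0022), and at day 8 without both libraries that lay apart (-0.54, adjusted p = 0.000835).

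Sc5d, the sterol desaturase that makes the substrate of Dhcr7, kept its rise, at 2.19-fold on day 4 (log2 fold change 1.13 ± 0.16 SE, adjusted p = 0.000255) and 2.56-fold on day 8 (1.35 ± 0.16 SE, adjusted p = 6.03e-05). Ebp, the sterol isomerase, rose by a smaller factor, 1.39-fold at day 4 (0.47 ± 0.10 SE, adjusted p = 0.00294) and 1.26-fold at day 8 (0.34 ± 0.10 SE, adjusted p = 0.0144). The day 8 call of Ebp was lost without day 0 replicate 3 (0.26, adjusted p = 0.0629) and with upper quartile scaling (0.23, adjusted p = 0.0712). Tm7sf2, a sterol reductase, was not called at day 4 (0.18 ± 0.12 SE, adjusted p = 0.223) or day 8 (0.19 ± 0.12 SE, adjusted p = 0.19), and was higher at day 8 without day 0 replicate 1 (0.31, adjusted p = 0.0483). It overlaps Vps51 in the RefSeq table. Hsd17b7, the ketosteroid reductase of sterol demethylation, was not called against day 0 (0.18 ± 0.14 SE, adjusted p = 0.294 at day 4 and -0.27 ± 0.14 SE, adjusted p = 0.103 at day 8). It was lower at day 8 than at day 4 (-0.45 ± 0.14 SE, adjusted p = 0.0327), a call lost without day 4 replicate 3 (-0.40, adjusted p = 0.095) or without day 8 replicate 1 (-0.40, adjusted p = 0.115) or 2 (-0.41, adjusted p = 0.11). It was also lost with scaling by library totals (-0.31, adjusted p = 0.114) and with a replicate block (-0.46, adjusted p = 0.0505). Against day 0, Hsd17b7 was lower at day 8 with upper quartile scaling (-0.38, adjusted p = 0.0307) and without both libraries that lay apart (-0.37, adjusted p = 0.0196).

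**Figure D3:**
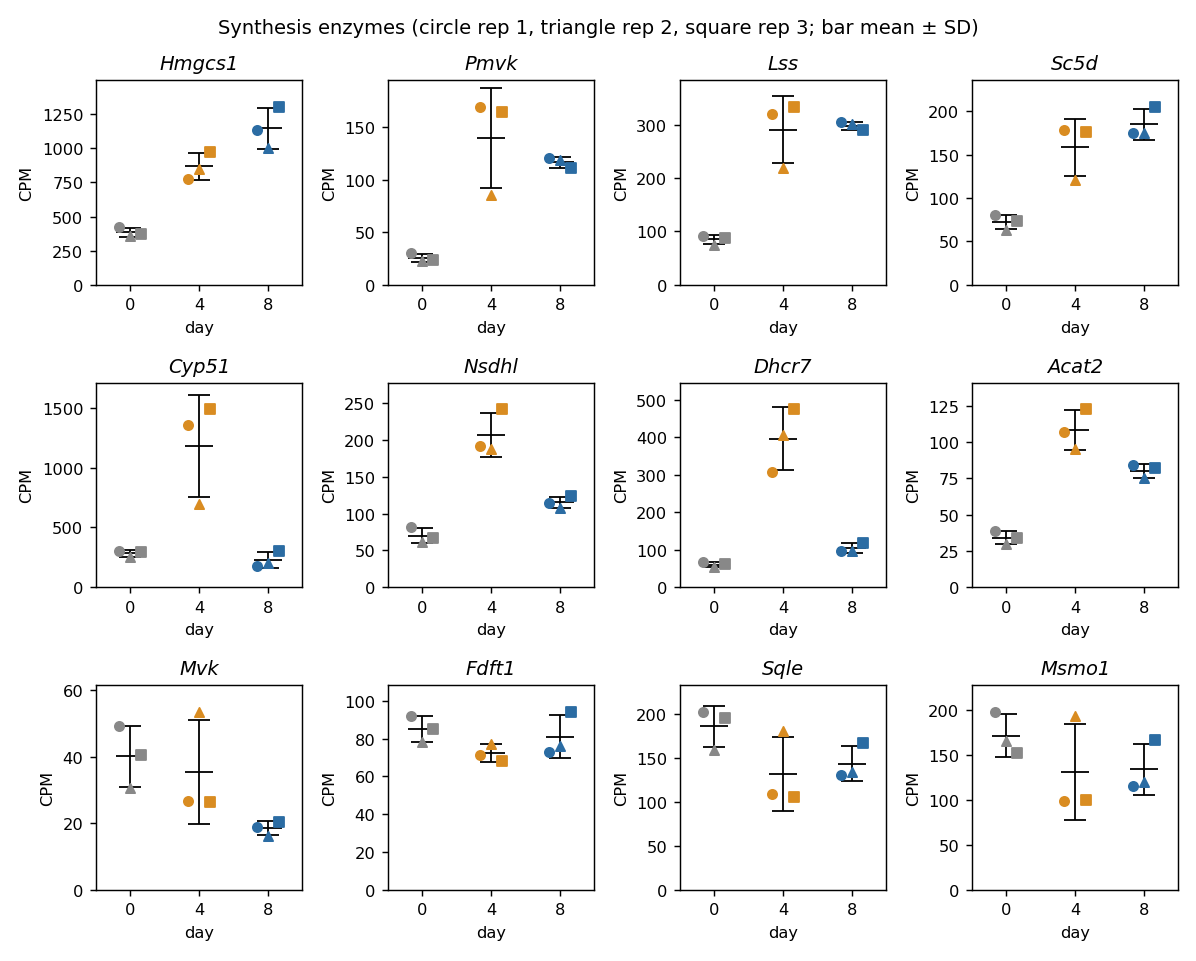
CPM (y axis, from 0) of 12 synthesis enzymes in each library at days 0, 4 and 8 (x axis), with the mean and SD of 3 libraries. Cyp51 and Dhcr7 are highest at day 4, and day 4 replicate 2 (triangle) stands apart from replicates 1 and 3 for Cyp51, Pmvk, Mvk, Sqle and Msmo1.

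The genes that sense sterols moved in opposite directions. Srebf2, which encodes SREBP-2, had 220.5, 206 and 228 CPM at day 0, 92.2, 161 and 92.97 CPM at day 4 and 75.01, 88.8 and 113 CPM at day 8. Every induced library lay under every day 0 library, and day 4 replicate 2 was the nearest to them. Srebf2 was 1.89-fold lower at day 4 (log2 fold change -0.92 ± 0.22 SE, adjusted p = 0.00577) and 2.37-fold lower at day 8 (-1.24 ± 0.23 SE, adjusted p = 0.000778). Scap, its escort, had 82.7, 79.5 and 95.4 CPM at day 0, 36.3, 44.4 and 34.4 CPM at day 4 and 30.9, 36.1 and 33.8 CPM at day 8. The groups of both induced days lay near each other and well under day 0, at 2.24-fold (-1.16 ± 0.13 SE, adjusted p = 3.82e-05) and 2.55-fold lower (-1.35 ± 0.13 SE, adjusted p = 1.18e-05).

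Insig1, which retains SCAP in the endoplasmic reticulum, had 61.7, 48.5 and 57.3 CPM at day 0, 593, 276 and 519.8 CPM at day 4 and 599.7, 516 and 548 CPM at day 8. Every induced library exceeded every day 0 library, with day 4 replicate 2 the lowest of them. Insig1 rose 8.29-fold at day 4 (log2 fold change 3.05 ± 0.26 SE, adjusted p = 8.56e-06) and 9.92-fold at day 8 (3.31 ± 0.26 SE, adjusted p = 4.6e-06). Insig2, its relative, had 13.5, 12.6 and 11.1 CPM at day 0, 27.2, 12.4 and 20.9 CPM at day 4 and 33.1, 27.9 and 26.4 CPM at day 8. Day 8 lay above day 0 in all libraries, while day 4 replicate 2 lay inside the day 0 range. It rose 2.35-fold at day 8 (log2 fold change 1.23 ± 0.24 SE, adjusted p = 0.00124). Its rise at day 4 (0.70 ± 0.24 SE, adjusted p = 0.0293) did not pass without day 0 replicate 2 (0.71, adjusted p = 0.0674) or 3 (0.63, adjusted p = 0.0953), or without day 4 replicate 1 (0.43, adjusted p = 0.12) or 3 (0.68, adjusted p = 0.0709). Nor did it pass with scaling by library totals (0.54, adjusted p = 0.0726) or the upper quartile (0.58, adjusted p = 0.0606), or by limma-voom (0.63, adjusted p = 0.0586). Without day 4 replicate 1 it was higher at day 8 than at day 4 (0.81, adjusted p = 0.0212), as with scaling by library totals (0.68, adjusted p = 0.0497), which was not called over all libraries (0.53 ± 0.24 SE, adjusted p = 0.114).

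Genes of uptake and transport moved in different directions and on different days. Scarb1, the scavenger receptor that exchanges cholesterol with high density lipoprotein, had 30.3, 30.9 and 26.2 CPM at day 0, 352, 316 and 384 CPM at day 4 and 312, 287 and 354 CPM at day 8. All induced libraries were far above day 0, and day 4 and day 8 overlapped. It rose 12.03-fold at day 4 (log2 fold change 3.59 ± 0.14 SE, adjusted p = 9.63e-08) and 10.9-fold at day 8 (3.45 ± 0.14 SE, adjusted p = 1.28e-07). Npc1 (ENSMUSG00000024413), the membrane protein that lets cholesterol leave lysosomes, had 139.5, 151 and 154 CPM at day 0, 109, 121 and 101 CPM at day 4 and 261, 271 and 267 CPM at day 8. The 3 groups did not overlap, with day 4 the lowest and day 8 the highest. Against day 0, Npc1 was 1.34-fold lower at day 4 (log2 fold change -0.42 ± 0.10 SE, adjusted p = 0.00515) and 1.80-fold higher at day 8 (0.84 ± 0.10 SE, adjusted p = 5.52e-05). Day 8 exceeded day 4 by 2.40-fold (1.27 ± 0.10 SE, adjusted p = 0.000118). Npc1 overlaps Rmc1 in the RefSeq table. Rmc1, named because of that overlap after values were seen, rose on both days (1.85 at day 4, adjusted p = 4.13e-06, and 1.76 at day 8, adjusted p = 4.64e-06), and whether reads of one are counted for the other was not tested.

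Npc2, the soluble partner of Npc1, had 386, 401 and 391 CPM at day 0, 427, 674 and 463 CPM at day 4 and 523, 503 and 444 CPM at day 8. Day 4 replicate 2 was the highest library of all, and every induced library lay above day 0. Npc2 was not called at day 4 (log2 fold change 0.41 ± 0.17 SE, adjusted p = 0.0602) or day 8 (0.32 ± 0.17 SE, adjusted p = 0.117). It was higher at day 4 without day 4 replicate 1 (0.54, adjusted p = 0.0252) and by DESeq2 (0.41, adjusted p = 0.0342). At day 8 it was higher without day 4 replicate 2 (0.32, adjusted p = 0.00859), without both libraries that lay apart (0.39, adjusted p = 0.00117) and in a fit of the 6 libraries compared (0.33, adjusted p = 0.0127). Stard4, a soluble sterol carrier, had 32.3, 29.4 and 25.1 CPM at day 0, 28.3, 35.00 and 26.4 CPM at day 4 and 33.8, 33.4 and 39.6 CPM at day 8. Its groups at days 0 and 4 overlapped, and day 8 lay just above day 0. It was not called at day 4 (0.05 ± 0.14 SE, adjusted p = 0.795) or day 8 (0.30 ± 0.14 SE, adjusted p = 0.0814), and without day 4 replicate 2 it was higher at day 8 than at day 0 (0.30, adjusted p = 0.0346) and than at day 4 (0.38, adjusted p = 0.0463). In a fit of the 6 libraries compared it was also higher at day 8 than at day 0 (0.30, adjusted p = 0.0414).

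Mylip, a ubiquitin ligase that marks lipoprotein receptors for breakdown, had 56.3, 51.4 and 61.3 CPM at day 0, 29.02, 22.6 and 28.4 CPM at day 4 and 43.9, 38.5 and 47.7 CPM at day 8. Day 4 was the lowest group, day 8 lay between, and no group overlapped another. Mylip was 2.11-fold lower at day 4 (log2 fold change -1.08 ± 0.13 SE, adjusted p = 7.86e-05) and rose again between day 4 and day 8 (0.70 ± 0.13 SE, adjusted p = 0.00382). At day 8 it was 1.30-fold lower than at day 0 (-0.38 ± 0.13 SE, adjusted p = 0.0241), a call lost without day 0 replicate 1 (-0.37, adjusted p = 0.0598) or 3 (-0.31, adjusted p = 0.0906), or without day 8 replicate 1 (-0.37, adjusted p = 0.0613) or 2 (-0.29, adjusted p = 0.106).

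The exporters rose and the storage enzyme fell. Abcg1, a transporter that moves sterols to lipoproteins, had 9.50, 14.6 and 16.04 CPM at day 0, 166, 135 and 151 CPM at day 4 and 265, 266 and 195 CPM at day 8. The groups stood in order of day without overlap. It rose 11.3-fold at day 4 (log2 fold change 3.49 ± 0.22 SE, adjusted p = 1.16e-06) and 18.1-fold at day 8 (4.17 ± 0.22 SE, adjusted p = 5.67e-07). Its further rise from day 4 (0.68 ± 0.19 SE, adjusted p = 0.025) did not pass without day 4 replicate 3 (0.68, adjusted p = 0.0628), without day 8 replicate 1 (0.61, adjusted p = 0.0883) or 2 (0.61, adjusted p = 0.0872), or with a replicate block (0.68, adjusted p = 0.0531).

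Abca1, which loads cholesterol onto apolipoprotein A-I, had 324, 424 and 515 CPM at day 0, 968, 821 and 988 CPM at day 4 and 600.3, 551 and 547 CPM at day 8. Day 4 was above both other days, and day 8 lay just above the highest day 0 library. It rose 2.20-fold at day 4 (log2 fold change 1.14 ± 0.17 SE, adjusted p = 0.000323) and was lower at day 8 than at day 4 (-0.71 ± 0.17 SE, adjusted p = 0.0121). It was also higher at day 8 than at day 0 (0.43 ± 0.17 SE, adjusted p = 0.046), a call that 7 of the 9 fits without 1 library lost. These were the fits without day 0 replicate 1 (0.28, adjusted p = 0.147) or 2 (0.43, adjusted p = 0.0988), without day 4 replicate 1 (0.43, adjusted p = 0.0541) or 3 (0.43, adjusted p = 0.0554), and without day 8 replicate 1 (0.39, adjusted p = 0.112), 2 (0.46, adjusted p = 0.0731) or 3 (0.46, adjusted p = 0.06). It was also lost with a replicate block (0.44, adjusted p = 0.0573) and with upper quartile scaling (0.32, adjusted p = 0.117). Macrophages also carry Abca1 and Abcg1. The 8 macrophage markers examined, all with counts, summed to 57.2 to 107 CPM at day 0 and 57.3 to 78.3 CPM at day 4. At day 8 the sum was lowest, 19.3 to 51.6 CPM. Its fall from day 0 to day 8 came mostly from Lyz2 (means 41.5 and 8.86 CPM). Adgre1, Csf1r, Ptprc and Cd14 also had lower means on each later day. Mean Mrc1 was highest at day 4 (13.5 CPM, against 4.24 at day 0), as was Marco at under 1 CPM, and mean Cd68 at day 8 (5.14 CPM). The markers thus did not fall together, and their part in these levels was not tested.

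Soat1, which esterifies cholesterol for storage in droplets, had 198, 212 and 212 CPM at day 0, 64.1, 108 and 66.3 CPM at day 4 and 60.4, 56.8 and 90.5 CPM at day 8. Every induced library lay under every day 0 library, and day 4 replicate 2 and day 8 replicate 3 were the highest of their days. It was 2.61-fold lower at day 4 (log2 fold change -1.38 ± 0.23 SE, adjusted p = 0.000586) and 2.99-fold lower at day 8 (-1.58 ± 0.23 SE, adjusted p = 0.000191). Without these 2 libraries the log2 fold changes were -1.66, adjusted p = 8.51e-09 at day 4 and -1.82, adjusted p = 3.43e-09 at day 8.

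**Figure D4:**
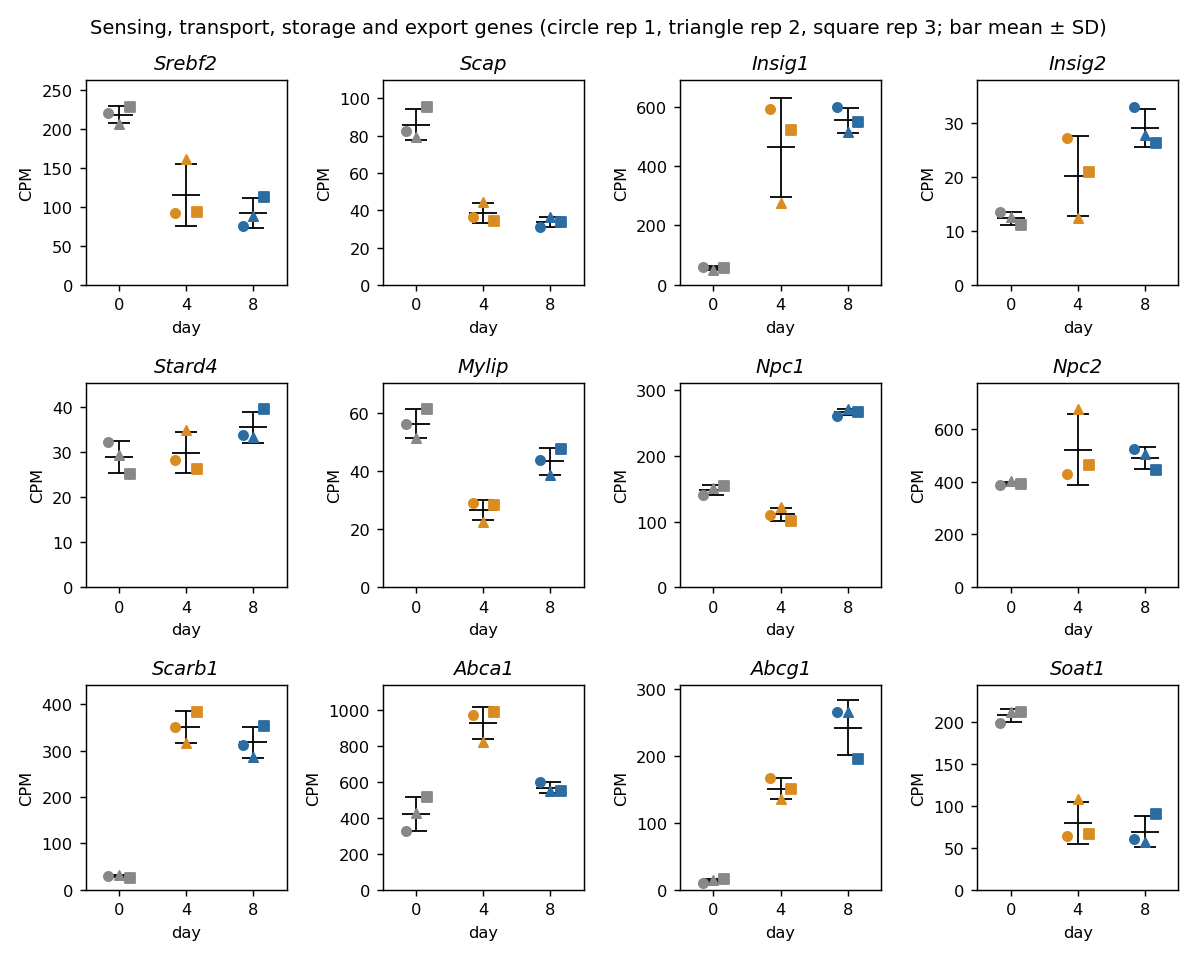
CPM (y axis, from 0) of the 12 handling genes in each library at days 0, 4 and 8 (x axis), with the mean and SD of 3 libraries. Insig1, Scarb1 and Abcg1 are above day 0 in all 6 induced libraries, Srebf2, Scap and Soat1 are under it in all 6, and Npc1 is under day 0 at day 4 and above it at day 8.

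A further 37 genes of the pathway, listed from pathway knowledge, were examined beside the members, and 35 of them passed the filter. At day 4, 12 rose and 12 fell, at day 8 17 rose and 10 fell against day 0, and 9 were higher and 6 lower at day 8 than at day 4. Over all 14714 genes 58.2% were called at day 4 (29.8% higher, 28.4% lower) and 67.7% at day 8 against day 0 (34.2% and 33.5%). Between day 8 and day 4 the share was 31.8% (14.7% and 17.1%). The pooled counts hide differences by class. Against day 0, of 5 synthesis genes tested, 0 rose and 3 fell at day 4, and 1 rose and 4 fell at day 8. For 10 sensing genes these numbers were 5 and 3, then 6 and 2. For 12 uptake and transport genes they were 4 and 2, then 6 and 2. For 8 storage and export genes they were 3 and 4, then 4 and 2.

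Not every gene of that list is reported singly. Of the 8 with the smallest adjusted p at day 8 against day 0, 6 rose and 2 fell on that day. The fatty acid and lipoprotein receptor Cd36 had the largest log2 fold changes (8.05 at day 4 and 7.79 at day 8). Nr1h3, which encodes liver X receptor alpha, rose 21.7-fold at day 4 (log2 fold change 4.44 ± 0.24 SE, adjusted p = 6.13e-07) and 16.7-fold at day 8 (4.06 ± 0.24 SE, adjusted p = 9.2e-07). Srebf1, which encodes SREBP-1, the relative of SREBP-2 that mainly serves fatty acid synthesis, rose 6.74-fold at day 4 and 3.75-fold at day 8, whereas Srebf2 fell on both days. Vldlr, a lipoprotein receptor, rose too (2.22 at day 4 and 1.87 at day 8), as did Gramd1b, which carries cholesterol between plasma membrane and endoplasmic reticulum (2.33 at day 4 and 1.90 at day 8). Pltp, a phospholipid transfer protein, was not called at day 4 (-0.0013 ± 0.12 SE, adjusted p = 0.994) and rose 3.60-fold at day 8 (1.85 ± 0.12 SE, adjusted p = 1.87e-06). Mbtps1, the protease that makes the first cut of SREBPs, fell (-0.72 at day 4 and -1.21 at day 8), as did Rnf145, a ubiquitin ligase of the endoplasmic reticulum (-0.79 at day 4 and -1.51 at day 8).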

How the data were processed

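Ribosome footprints of 9 libraries, 3 per group, were deposited by the authors as raw counts per gene, which is the unit used here. Per the submitters' processing notes, cutadapt, HISAT2 and featureCounts were used with genome build GRCm39. For the versions, the strand setting and reads with several matches, nothing was stated in the sources used here (not given). Genes were kept by filterByExpr (minimum count 10, minimum total 15), scaled by TMM and tested with edgeR 4.0.16 (R 4.3.3, group as the only term, 6 residual degrees of freedom), with Benjamini-Hochberg adjustment over 14714 genes. Alternatives used other scalings, no filter, limma 3.58.1, DESeq2 1.42.0, a replicate block, the 2 groups alone and fits without libraries. The members and lists were chosen with earlier results of these data known. All 30 members may be named, with values by library for 7 preset enzymes and the 12 handling genes, and further pathway genes with values for at most 12. Values by library of Mvk, Pmvk and Lss were added after values were seen. Same-numbered libraries deviated together with correlations from -0.20 to 0.19, over 0.1 in 2 of 9 pairs, so the numbers were not taken to pair libraries. Each member had at least 1091 counts in all. Promoter sequences are from RefSeq, GRCm38.p6, and coordinates refer to that build.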

Additional observations from a re-analysis of the deposited data

Results flagged for a closer look

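Npc1 moved in opposite directions against day 0 at the 2 induced days. It had 261, 271 and 267 CPM at day 8 and 109, 121 and 101 CPM at day 4, with 139.5, 151 and 154 CPM at day 0. Day 8 differed from day 4 by a log2 fold change of 1.27 ± 0.10 SE (adjusted p = 0.000118, edgeR), which is the test of the difference, since both days share the day 0 libraries. Every day 8 library was above and every day 4 library under day 0.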

How the results depend on the processing

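Each member's 3 fold changes were recomputed under 18 alternatives. Over the settings that left out no single library or pair, 684 of the values kept direction and side of the threshold. In these settings 15 gained a call and 13 lost one. Over fits without 1 library, or without both that lay apart, these numbers were 824, 23 and 28. The number of genes called between day 8 and day 4 ranged over the fits without 1 library, or without both that lay apart, from 2706 to 5481, against 4676, lowest without day 8 replicate 1 (2706) and 2 (2760). That of synthesis enzymes ranged from 3 to 8 and that of further pathway genes from 8 to 21. Directions reversed in 33 cases, all log2 fold changes that were not called over all libraries. At day 4 against day 0 the range without libraries was Mvk -0.60 to 0.0101, Idi1 -0.0692 to 0.25, Stard4 -0.0784 to 0.15. At day 4 against day 0 with scaling by library totals the value was Idi1 -0.0146, Stard4 -0.11. At day 4 against day 0 with upper quartile scaling the value was Stard4 -0.081. At day 8 against day 0 the range without libraries was Fdft1 -0.19 to 0.0101. At day 8 against day 4 the range without libraries was Fdps -0.11 to 0.0249, Sqle -0.0116 to 0.42, Lss -0.13 to 0.15, Tm7sf2 -0.064 to 0.055, Msmo1 -0.16 to 0.42, Sc5d -0.0181 to 0.32, Insig1 -0.0071 to 0.48, Npc2 -0.21 to 0.20, Soat1 -0.44 to 0.0858. At day 8 against day 4 with scaling by library totals the value was Mvd 0.0361, Fdps 0.0962, Ebp 0.0053, Npc2 0.0491, Scarb1 0.0019. The cause was not tested. With a replicate block, 8290, 9722 and 4079 genes were called at day 4 against day 0, day 8 against day 0 and day 8 against day 4, against 8563, 9961 and 4676 without it. Upper quartile scaling moved the median of all genes by -0.13 at day 4 and -0.11 at day 8 against day 0. Scarb1 was lower at day 8 than at day 4 without both libraries (-0.30, adjusted p = 0.0441).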
